A study of Mus musculus with 8 samples.

Results

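The replication-dependent histone genes encode the bulk of the H1, H2A, H2B, H3 and H4 proteins onto which new DNA is wound. They were taken as all symbols of the count tables that begin with Hist1h, Hist2h, Hist3h or Hist4h and hold at least 10 counts summed over 8 libraries. Of 47517 symbols 70 begin in this way and 69 met the minimum. Hist1h1t, a linker histone of the testis, had 2 counts in all and was not included, whereas Hist1h1a with 11 and Hist2h2bb with 16 counts lay just inside. Whole inner ears were taken at postnatal day 14. Libraries were made from 4 samples of wild-type mice and from 4 samples of littermates heterozygous for a Thra frameshift that changes how thyroid hormone receptor α1 (TRα1) works. No group received a treatment, and strain, allele name and sex were among the facts not given in the sources used here. Whether each library came from 1 animal or from a pool is not said in the labels, so a p-value covers only the variation among the libraries at hand, part of which may be technical.

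Nucleosomes consist of paired H2A, H2B, H3 and H4 proteins, and H1 binds the DNA between them. The genes of the replication-dependent set lie in clusters, mostly lack introns and are transcribed in S phase, when the cell needs histones for the copied genome. Their mRNAs usually end in a short stem-loop rather than in a poly(A) tail. The stem-loop is bound by SLBP, and cleavage behind it is guided by the U7 ribonucleoprotein, so such mRNAs are largely lost in oligo-dT libraries but can be measured in total RNA. Some of the genes also give polyadenylated mRNAs in cells that have stopped dividing. Hair cells and supporting cells of the mouse cochlea leave the cell cycle before birth, whereas blood and bone cells of the surrounding tissue can still divide.

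Library totals ranged from 18930841 to 23064578 counts, and the 69 histone genes together took between 0.0353% and 0.0544% of them. A floor of 3 counts in a library corresponded to 0.132 to 0.159 CPM (counts over library size, with sizes normalized by the trimmed mean of M-values), and such floors cover counting error only. Thra itself stood at 107 ± 8.28 CPM in the wild-type group and 127 ± 10.2 CPM in the mutants (SD, n = 4 each), which does not check a frameshift. Of 10 marker genes of hair and supporting cells, 9 exceeded 3 counts in every library, whereas Fgf8 had 1 to 7 counts, and the 10 summed to between 636 and 859 CPM. In each genotype the sample titles carry 1 number for replicates 1 and 4 but 2 numbers for replicates 2 and 3, without a stated meaning, and 9.39% of the tested genes differed between these title forms. In bulk tissue, fewer cells of a type and less RNA per cell cannot be told apart.

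Of the 69 genes 66 are annotated as protein coding and 3 as pseudogenes, and 64 have a single exon in GENCODE M21 (GRCm38, the assembly of the build mm10 used by the submitters). The Hist1 cluster on chromosome 13 holds 54 of them, between 21715763 and 23934851. Hist1h2al, a processed pseudogene named like the cluster, lies apart from it at chr13:51202727-51203065. Hist2 on chromosome 3 holds 10, Hist3 on chromosome 11 holds 3, and Hist4h4 lies alone on chromosome 6. By family there were 5 H1, 20 H2A, 19 H2B, 12 H3 and 13 H4 genes. A 16-base match to the histone stem-loop consensus, with at most 1 mismatch, was found in the annotated transcripts of 44 of the 69 genes (63.8%). The same search found it in 57 of 55272 other annotated genes (0.103%). Most common was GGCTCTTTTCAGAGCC, in 26 genes of the H1, H2A, H2B and H3 families. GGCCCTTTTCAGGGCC stood in 7 genes, all of the H4 family. The stem-loops of genes described below are printed with their flanks, 5′ to 3′ as DNA, with the stem and loop in capitals, because they show how little this element differs between families.
Hist1h1c: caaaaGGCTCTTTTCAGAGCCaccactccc
Hist2h2aa1: aaaaaGGCTCTTTTCAGAGCCacccactga
Hist3h2a: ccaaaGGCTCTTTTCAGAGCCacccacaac
Hist2h3c1: acaaaGGCTCTTTTCAGAGCCaccacagct
Hist1h4i: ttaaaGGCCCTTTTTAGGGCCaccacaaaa
Hist4h4: acaaaGGCCCTTTTCAGGGCCcacaaagca

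The element was not found in the annotated transcripts of Hist1h2bc or Hist2h2be, a pair of genes known to give polyadenylated mRNA. No match says only that these letters are not in those transcript models. In Hist1h1c, also known for polyadenylated mRNA, the annotated transcript runs on for 840 bases behind the stem-loop, against 35 bases in Hist2h2aa1. In Hist4h4 it runs on for 2445 bases. The median wild-type level was 1.90 CPM per kilobase over the genes with the element and 2.33 over the 25 genes without it, and the median log2 fold change (mutant minus wild-type) was -0.10 over 30 tested genes with it and -0.14 over 17 without it.

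Members of 1 family are close copies, and this limits what a count per gene can show. At least one 50-base stretch was shared with another member in 64 of the 69 genes, and 32 genes shared more than 50% of their stretches. The median shared portion was 73.2% in H2A, 57.2% in H3, 40.1% in H2B, 39.5% in H4 and 2.21% in H1 genes. The most widely shared stretch of each core family is printed, since reads that fall inside it have no unique origin. All 4 lie in coding sequence, and the H2A stretch spans bases 185 to 234 of the Hist1h2ab transcript.
H2A, in 18 genes: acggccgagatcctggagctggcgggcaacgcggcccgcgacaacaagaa
H2B, in 15 genes: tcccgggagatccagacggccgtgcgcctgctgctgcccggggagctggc
H3, in 12 genes: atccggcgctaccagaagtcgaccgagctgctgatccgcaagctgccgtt
H4, in 11 genes: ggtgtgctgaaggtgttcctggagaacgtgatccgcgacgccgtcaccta

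The deposited counts of some copies were nearly equal in every library. With a tolerance of 5% in all 8 libraries and at least 40 counts, chosen after the counts had been seen, 12 genes fell into 4 groups. The largest group held Hist1h2ab, Hist1h2ac, Hist1h2ad, Hist1h2ae, Hist1h2ah and Hist1h2ai, all H2A genes of chromosome 13. The others were Hist1h2ao with Hist1h2ap, Hist1h2bq with Hist1h2br, and Hist2h2aa1 with Hist2h2aa2. For example Hist2h2aa1 held 737, 662, 500 and 802 counts in wild-type replicates 1 to 4, against 736, 665, 503 and 806 for Hist2h2aa2. Such values are not independent measurements of each gene, and how reads with several origins were counted was a step not given in the sources used here. Sums over a family can therefore hold the same read more than once.

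**Figure D1:**
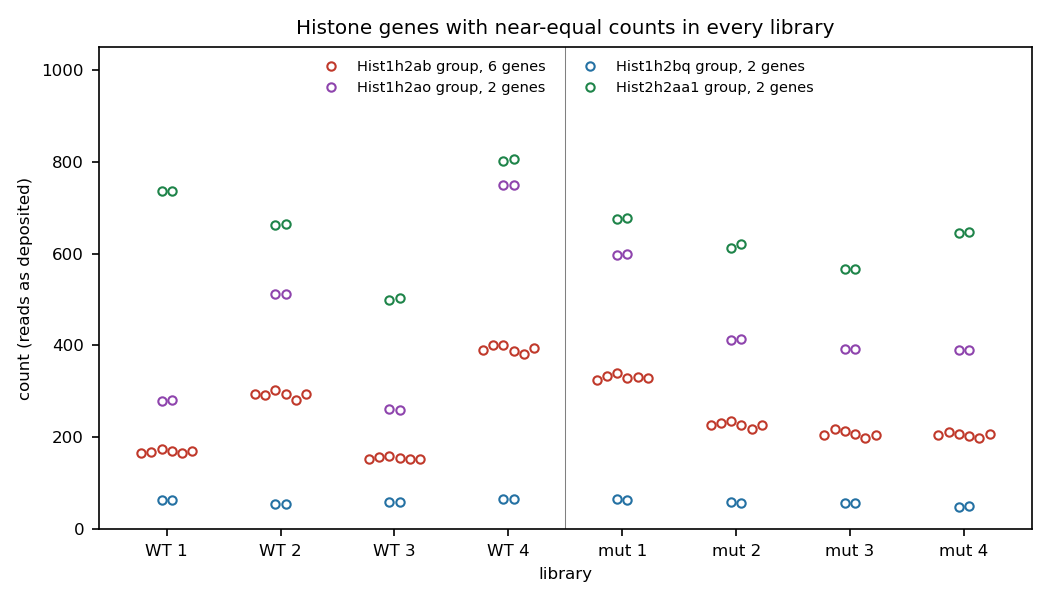
Deposited counts (vertical axis, reads) of the 12 histone genes with near-equal counts, by library (4 wild-type, 4 mutant), 1 circle per gene, coloured by group. The circles of a group stand side by side at nearly the same height in every library, while the groups move between libraries. In wild-type replicate 4, for example, Hist1h2ao reached 749 counts against 261 in wild-type replicate 3.

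Hist1h2bq (chr13:21806612-21810197, minus strand) and Hist1h2br (chr13:21833743-21837530, plus strand) each lie beside an H2A gene of another near-equal pair, Hist1h2ao or Hist1h2ap, that is transcribed away from them. RefSeq promoter windows (GRCm38.p6, 250 bases before to 50 after the start) were matched for 61 of the 69 genes. The windows of Hist1h2ao and Hist1h2bq overlap by 267 bases. Over the last 120 bases before the start, Hist1h2bq and Hist1h2br differed by 0 letters. That stretch is printed for Hist1h2bq (chr13:21810200-21810319, minus strand), with the letters CCAAT and their reverse complement ATTGG in capitals. The same region is printed for Hist1h1c (chr13:23738687-23738806, plus strand), with AAACACA, the H1 box, also in capitals, and for Hist4h4 (chr6:136804432-136804551, minus strand), which holds none of the motifs searched.
Hist1h2bq: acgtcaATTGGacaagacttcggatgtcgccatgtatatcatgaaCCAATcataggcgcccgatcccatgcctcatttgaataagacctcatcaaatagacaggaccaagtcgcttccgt
Hist1h1c: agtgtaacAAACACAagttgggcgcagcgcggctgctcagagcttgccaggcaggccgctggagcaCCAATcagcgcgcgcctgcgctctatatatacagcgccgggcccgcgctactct
Hist4h4: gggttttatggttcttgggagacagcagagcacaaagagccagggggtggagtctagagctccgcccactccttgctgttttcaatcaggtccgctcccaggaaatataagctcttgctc

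CCAAT, searched on both strands, occurred in 85.5% of the 62 histone windows against 37.4% of all 32851 promoter windows. It stood in every window of the H1, H2A, H2B and H3 genes matched and in 3 of 12 H4 windows. TATAAA occurred in 56.5% of histone windows and 13.6% of all windows. The octamer ATTTGCAT, known as an element of H2B promoters, occurred in 7 of 17 H2B and 7 of 18 H2A windows and in none of the H1, H3 or H4 windows. Many H2A and H2B genes lie head to head and are transcribed away from each other, so that 1 octamer can lie in the windows of both. AAACACA stood in 4 of 5 H1 windows and in 7.18% of all windows. A match is a run of letters and was not tested as a binding site.

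In wild-type ears the families stood at different levels per kilobase of exon. The median was 26.3 CPM per kilobase over H2A genes and 2.24 over H2B genes. It was 0.742 over H4, 0.504 over H3 and 0.241 over H1 genes. In all 18 genes exceeded 10 CPM per kilobase, 15 of them H2A, and 26 stood under 1, among them 10 H4 and 9 H3 genes. Counts of shared reads can raise the H2A values, as above. The 35 genes of an S phase list, enzymes and factors of DNA replication, had a median of 5.34 CPM per kilobase. A list of histones that can also be made outside S phase had a median of 8.89 CPM per kilobase over 19 symbols, with higher single levels. Only 12 of these symbols passed the expression filter described below. The others stood at 0.0903 CPM per kilobase or less and lower this median. The highest was H3f3c at 174 ± 34.7 CPM per kilobase, followed by the H3.3 genes H3f3a at 122 ± 7.43 and H3f3b at 80.9 ± 3.16 (SD, n = 4 each). H2afz, which encodes H2A.Z, stood at 73.6 ± 12.3 and H1f0, the linker histone of resting cells, at 63.6 ± 3.78. Before division by exon length, the wild-type mean of H3f3c was 71.7 CPM, below H3f3a at 427 and H3f3b at 241 CPM. Stretches shared with other genes were not searched in the histones of that list. Shared reads may therefore raise these values too, and which of these genes is most expressed was not settled.

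**Figure D2:**
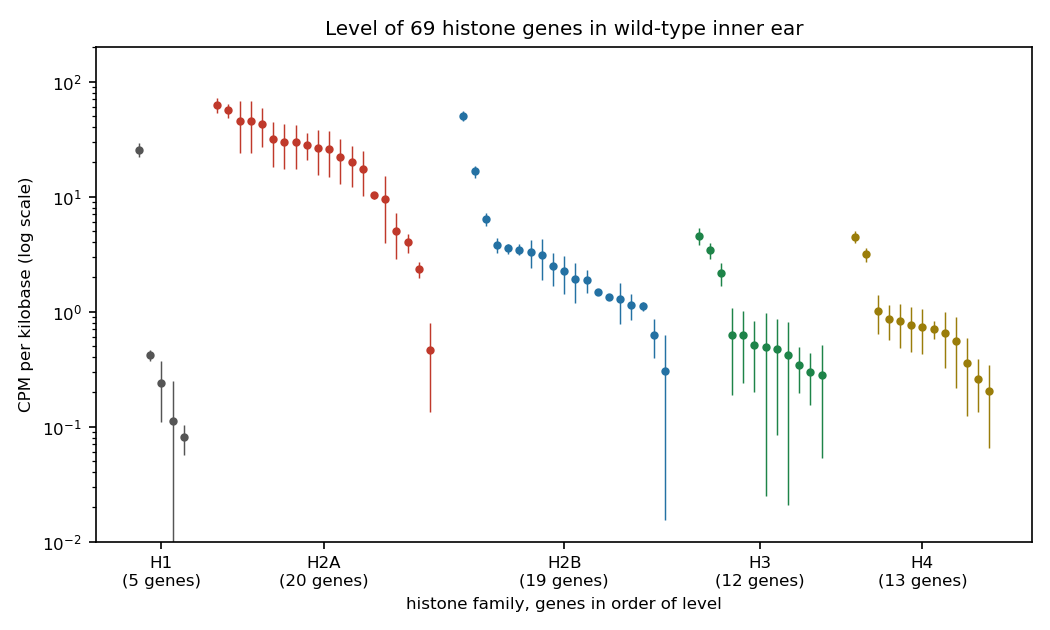
Mean CPM per kilobase (log scale) of the 69 histone genes in 4 wild-type libraries, ordered by level within each family, with bars of 1 SD (bars that reach 0 end at the lower edge). H2A genes fill the upper part of the plot, whereas in H1 and H2B only Hist1h1c at 25.6, Hist1h2bc at 50.2 and Hist3h2ba at 16.6 exceed 10 CPM per kilobase.

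Few genes supplied much of the signal. The 6 with the highest CPM were Hist1h2bc, Hist1h1c, Hist2h2aa2, Hist2h2aa1, Hist3h2a and Hist1h2ap. They held 43.1% to 52.7% of all histone CPM in single wild-type libraries and 44.6% to 50.7% in mutant libraries. Hist2h2aa1 and Hist2h2aa2 are a near-equal pair, so these shares can hold the same reads more than once. Per kilobase the order was led by Hist2h2aa2 (62.7 ± 9.04), Hist2h2aa1 (56.3 ± 8.16), Hist1h2bc (50.2 ± 5.12) and Hist1h2ao (45.8 ± 21.9, SD, n = 4 each). The differences between these neighbours were smaller than the spread of at least 1 of the genes compared. With near-equal counts, the order of Hist2h2aa2 and Hist2h2aa1 follows their annotated lengths of 528 and 586 bases.

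Hist4h4 had the largest difference between genotypes, but no histone gene passed the test. For a comparison across all genes, 21392 symbols passed the default expression filter of edgeR, among them 47 of the 69 histone genes. These were 3 of 5 H1, 19 of 20 H2A, 18 of 19 H2B, 3 of 12 H3 and 4 of 13 H4 genes. The 22 untested genes had 0 to 13 counts in single libraries. Of the 47 tested genes 0 were called higher and 0 lower in mutant libraries at a Benjamini-Hochberg adjusted p under 0.05 (edgeR quasi-likelihood test), where 0.00467% of all tested genes were called higher and 0.0374% lower (0.0421% in either direction). An unadjusted p under 0.05 was found for 0 of the 47 genes in edgeR, against 5.3% of all tested genes, for 0 in DESeq2 and for 1, Hist4h4, in limma-voom. In each of these tools the adjusted calls among histone genes were 0.

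The log2 fold changes were mostly small and negative. They were below 0 in 42 and above 0 in 5 of the 47 tested genes, where 51.7% of all tested genes were below 0. The median was -0.12 over the histone genes and -0.0061 over all genes, and the median SE of a histone gene was 0.29. Every H1, H2A and H4 gene tested was below 0, with medians of -0.15, -0.11 and -0.23, as were 16 of 18 H2B genes with a median of -0.12. The 3 tested H3 genes, all of the Hist2 cluster, were above 0 with a median of 0.12. Copies that share reads count more than once in such numbers. The median was -0.13 with 1 gene kept per group of near-equal counts, and it turned to 0.0023 without wild-type replicate 4. Within libraries with 1 number in the title, 22 of the 47 genes were lower in the mutants, with a median difference of 0.017 on the log2 scale. Within those with 2 numbers, 38 were lower, with a median of -0.12. Lower in both were 17. The difference between the title forms was tested as an interaction, with 0 of the 47 genes at an unadjusted p under 0.05. Over all 21392 tested genes 17 had an adjusted p under 0.05 for the interaction, among them 0 histone genes. The share of all genes at an unadjusted p under 0.05 was not computed for it.

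**Figure D3:**
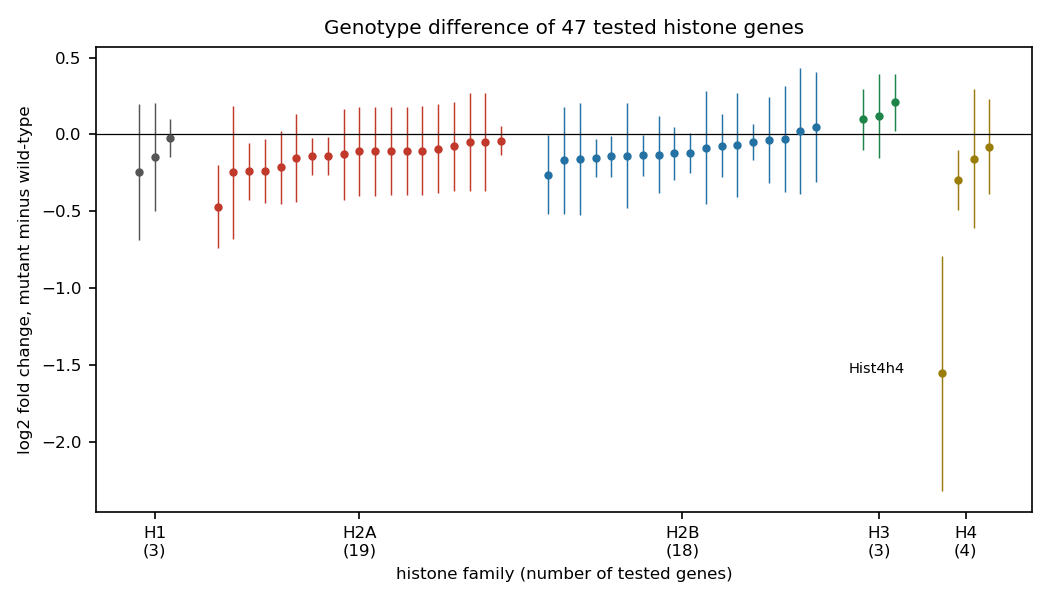
Log2 fold change (mutant minus wild-type, vertical axis) of the 47 tested histone genes by family, with bars of 1 SE. All values but Hist4h4 at -1.55 lie between -0.47 (Hist1h2af) and 0.21 (Hist2h3c1), and the 3 H3 genes are the only family entirely above 0.

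Among linker histones, Hist1h1c (chr13:23738808-23740367, plus strand) supplied nearly all counts. It encodes H1.2, a linker histone also expressed in resting cells. Per-library values are given in the order of the replicates. Its level was 39.4, 46.5, 32.9 and 40.8 CPM in the wild-type libraries, replicates 1 to 4, and 43.1, 39.6, 32.9 and 41.3 CPM in the mutant ones. The groups overlapped fully, with means of 39.9 ± 5.58 and 39.2 ± 4.45 CPM (SD, n = 4 each). The log2 fold change was -0.024, with a 95% interval of -0.30 to 0.26. Hist1h1e, a further linker histone gene, stood at 0.805 ± 0.0847 and 0.727 ± 0.268 CPM, and part of its annotated region is also that of Hist1h2be. Hist1h1b, a linker histone of dividing cells, had 1 to 6 counts per library and was not tested.

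Summed by family, H2A genes had the widest range between libraries, 1.89 times from lowest to highest, whereas single genes of low counts in other families, such as Hist4h4, varied more. Hist1h2ao (chr13:21810465-21810944, plus strand) stood at 13.0, 26.9, 13.6 and 34.5 CPM in wild-type ears and 26.3, 18.9, 19.04 and 20.7 CPM in mutant ears. The mutant values lay inside the range of the wild-type ones, where replicates 2 and 4 were high and 1 and 3 low. Its log2 fold change was -0.050 (95% interval -0.78 to 0.68, n = 4 and 4). Of 13 tested H2A genes within the Hist1 cluster, 12 had their highest CPM in wild-type replicate 4. The highest library of these 13 genes exceeded the lowest by 2.26 to 3.91 times with a median of 2.32. They include the near-equal groups of 6 and of 2 H2A genes, so they are not independent measurements. Hist1h2af (chr13:23533906-23534304) had the second smallest p of the histone genes, with 10.3, 23.6, 13.2 and 21.1 CPM in wild-type ears and 15.1, 12.001, 12.6 and 9.53 CPM in mutant ears (log2 fold change -0.47, SE 0.27, edgeR adjusted p = 0.945). Again the groups overlapped, and wild-type replicates 2 and 4 stood above all other libraries.

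The H2A genes outside that cluster that are named here ranged less between libraries. Hist2h2aa1 (chr3:96245497-96246082, plus strand) stood at 34.2, 34.8, 26.0 and 36.9 CPM in wild-type ears and 29.7, 28.1, 27.4 and 34.1 CPM in mutant ears. The groups, at 33.0 ± 4.78 and 29.8 ± 3.01 CPM (SD, n = 4 each), overlapped, and the log2 fold change was -0.14 (SE 0.12). Hist2h2aa2, its near-equal copy, had the same log2 fold change to 2 decimals, -0.14. Hist2h2ac stood lower, at 2.09 ± 0.393 and 1.77 ± 0.228 CPM, with a log2 fold change of -0.24. Hist3h2a (chr11:58954685-58956830, plus strand) ranged only from 18.4 to 23.9 CPM over the 8 libraries, and its log2 fold change was -0.040 (SE 0.096). Of its 50-base stretches 31.5% also occur in another gene, since it overlaps Trim17 on the same strand. Hist1h2al, an annotated H2A pseudogene, held 132 to 281 counts per library, and 67.6% of its 50-base stretches occur in other histone genes, so these counts need not come from it.

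Symbols of the strand opposite to H2A genes carried similar counts in some libraries. GENCODE places a predicted miRNA gene on the opposite strand of 19 histone genes, and 15 of these miRNA symbols had counts in some library. Where such a symbol was above 0 it held at least 106 counts, equal to 32.6% to 97.2% of the count of its histone gene. In the other libraries, 69 of 120 values, it was exactly 0. Gm44484, opposite Hist1h2ab, held 263 counts in wild-type replicate 2 and 356 in replicate 4, against 294 and 389 for Hist1h2ab, and 0 in replicates 1 and 3. Without a stated strand setting, reads of a gene and of its antisense partner cannot be told apart, and why the partner is listed at 0 in some libraries was not tested.

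**Figure D4:**
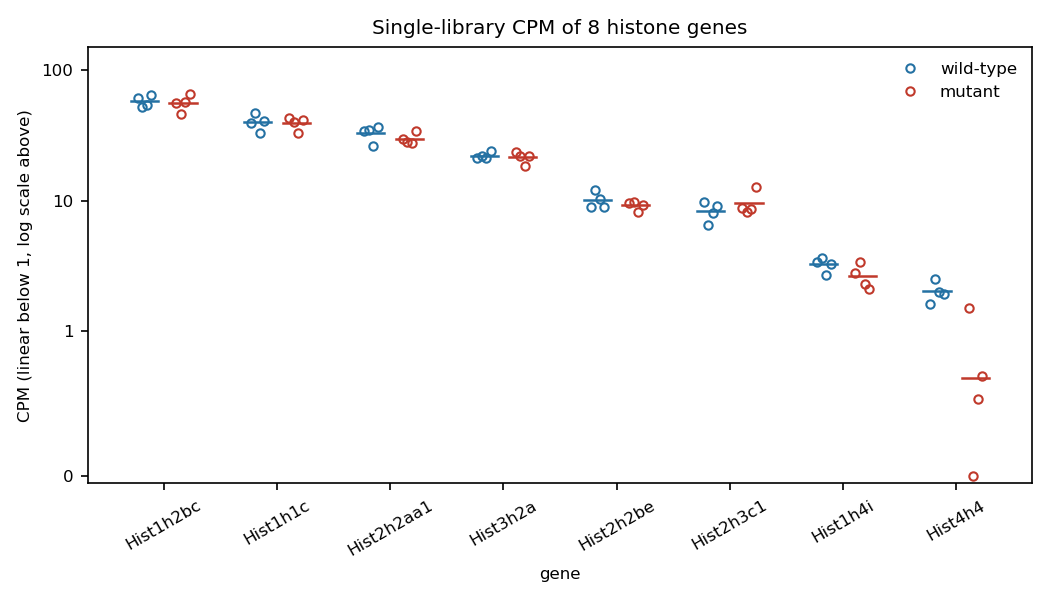
CPM of 8 histone genes in each library (circles) with group means (lines), wild-type and mutant, n = 4 each, on an axis that is linear below 1 and logarithmic above. The genotypes overlap in all genes shown except Hist4h4, where all 4 mutant values lie below the lowest wild-type value of 1.63 CPM.

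Hist1h2bc was the H2B gene with the highest level and is known for polyadenylated mRNA in differentiated cells. It lies at chr13:23684199-23692908 (plus strand) and has 2 exons. Its level was 61.5, 52.5, 53.5 and 64.4 CPM in wild-type ears and 55.8, 46.1, 56.8 and 65.1 CPM in mutant ears. The means of 58.0 ± 5.92 and 55.9 ± 7.77 CPM (SD, n = 4 each) gave a log2 fold change of -0.052, with a 95% interval of -0.32 to 0.22. In both genotypes the libraries with 1 number in the title were the higher ones except mutant replicate 1, which lay below mutant replicate 3. Between title forms the difference was -0.24 (2 numbers minus 1, SE 0.083, edgeR adjusted p = 0.113), and DESeq2 called it (adjusted p = 0.0354). No other histone gene was called for title form by either tool. An unadjusted p under 0.05 for title form was found for 4 of the 47 genes, against 26.9% of all tested genes.

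Hist2h2be (chr3:96221119-96223738, plus strand), an H2B gene expressed in resting cells such as neurons, shares no 50-base stretch with another histone gene. It stood at 8.87, 12.02, 10.2 and 8.97 CPM in wild-type ears and 9.53, 9.70, 8.24 and 9.32 CPM in mutant ears, with overlapping groups and a log2 fold change of -0.12 (SE 0.13). Hist3h2ba stood at 10.2 ± 1.203 and 9.15 ± 0.708 CPM (SD, n = 4 each, log2 fold change -0.15), and Hist1h2bg at 3.95 ± 0.524 and 3.76 ± 0.856 CPM. Hist1h2bq and Hist1h2br, the pair with identical promoter letters, were 2 of 3 tested histone genes whose genotypes did not overlap, against 2.69% of all tested genes. Hist1h2bq stood at 2.93, 2.89, 3.12 and 3.04 CPM in wild-type ears and 2.85, 2.67, 2.71 and 2.59 CPM in mutant ears. The lowest wild-type and the highest mutant library differed by less than the floor of 3 counts, and the log2 fold change was -0.14 (SE 0.13, edgeR adjusted p = 0.999989). Hist1h2ba, the H2B gene of the testis, had 17 to 31 counts per library (1.36 ± 0.135 and 1.14 ± 0.293 CPM), and 38.2% of its stretches occur in other histone genes. Hist1h2aa, its neighbour of the testis type, had 1 to 10 counts.

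H3 genes of the Hist1 cluster were close to the limit of detection. The 9 genes had 0 to 13 counts in single libraries, with summed counts of 70, 93, 16 and 36 in wild-type ears and 57, 27, 24 and 17 in mutant replicates 1 to 4. Hist1h3c had 8, 11, 3 and 4 counts in wild-type and 6, 3, 3 and 0 in mutant libraries, which does not separate the genotypes. H3 signal came mainly from Hist2h3c1 (chr3:96246685-96248509, plus strand), whose annotated stretches all occur in another gene as well, among them the overlapping Gm20634. It stood at 9.71, 6.46, 7.96 and 9.02 CPM in wild-type ears and 8.69, 8.18, 8.67 and 12.8 CPM in mutant ears. The groups overlapped, mutant replicate 4 was the highest, and the log2 fold change was 0.21 (SE 0.19, edgeR adjusted p = 0.999989). Without that library it was 0.039. Hist2h3c2 and Hist2h3b, the other tested H3 genes, had log2 fold changes of 0.099 and 0.12.

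Hist4h4 (chr6:136801553-136804415, minus strand) encodes H4 outside the main clusters and shares no 50-base stretch with another histone gene. It held 35, 48, 38 and 42 counts in wild-type and 34, 0, 11 and 13 counts in mutant replicates 1 to 4, or 2.01 ± 0.372 and 0.678 ± 0.618 CPM (SD, n = 4 each). All 4 mutant libraries lay below all wild-type ones, by a wide margin in replicates 2 to 4 and by little in replicate 1. The log2 fold change was -1.55 (SE 0.76, 95% interval -3.30 to 0.19, edgeR adjusted p = 0.925). It was -1.14 without mutant replicate 2, the library with 0 counts, and -2.30 without mutant replicate 1, and neither passed the threshold after adjustment. Within title forms it was -0.74 for 1 number and -3.24 for 2. Counts of exactly 0 in some library and at least 10 in another were found in 6.29% of all tested genes. Why Hist4h4 had 0 counts in mutant replicate 2 was not tested.

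The other H4 genes were weak and showed no such gap. Hist1h4i (chr13:22040636-22041362, minus strand) stood at 3.39, 3.62, 2.70 and 3.27 CPM in wild-type ears and 2.81, 3.36, 2.28 and 2.12 CPM in mutant ears, with a log2 fold change of -0.30 (SE 0.19, edgeR adjusted p = 0.971). The ranges overlapped. Hist1h4h stood at 1.48 ± 0.196 and 1.40 ± 0.555 CPM, and Hist1h4k, with 4 to 11 counts per library, was not tested.

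Summed by family, histone CPM differed more between libraries of 1 genotype than between genotypes. H2A genes summed to 207, 318, 194 and 365 CPM in wild-type ears and 292, 230, 223 and 247 CPM in mutant ears. The wild-type libraries thus held both the highest and the lowest values, with means of 271 ± 84.1 and 248 ± 31.02 CPM (SD, n = 4 each). H2B genes summed to 108 ± 7.49 and 102 ± 9.82 CPM, H1 genes to 41.6 ± 5.57 and 40.7 ± 4.98, H3 genes to 15.5 ± 2.16 and 15.9 ± 2.70, and H4 genes to 10.2 ± 1.79 and 8.10 ± 1.15. Of the 47 tested genes 23 had their highest level in wild-type replicate 4 and 11 in wild-type replicate 2, where copies that share reads count more than once. Erythroid genes, which mark red cell precursors, summed to 50808 CPM in wild-type replicate 2 and 26705 in wild-type replicate 4, against 7953 to 19525 CPM in the other libraries. Of the 17 genes of that list 16 were in the files, and 0 of these were at 0 in all libraries. Their part in the H2A values was not tested.

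Genes of the cell cycle were measured beside the histones, from lists chosen with earlier results of these data known. The 35 S phase genes summed to 929, 1206, 627 and 1162 CPM in wild-type ears and 817, 722, 532 and 568 CPM in mutant ears, so wild-type replicate 3 lay within the mutant range. Their log2 fold changes were negative in 34 of 35 genes with a median of -0.60, and 22 had an unadjusted p under 0.05, against 5.3% of all tested genes, but 0 were called. Pcna, the sliding clamp of DNA polymerases, had a log2 fold change of -0.55 (SE 0.21, edgeR adjusted p = 0.924), and Rrm2, which makes deoxynucleotides, one of -0.98 (SE 0.40). The 30 genes of G2 and M phase were all negative with a median of -0.78, with 25 at an unadjusted p under 0.05 and 0 called. Mki67, a marker of dividing cells, stood at 345 ± 165 and 159 ± 64.4 CPM. Lists of erythroid cells and of B cell and neutrophil precursors had negative medians as well, with 0 genes called in each. The median was -1.03 over 16 erythroid genes (15 negative, 2 lower at an unadjusted p under 0.05) and -0.96 over 14 genes of B cell precursors (12 negative, 6 lower at that level). It was -0.35 over 14 genes of neutrophil precursors, all negative, with 0 at an unadjusted p under 0.05. T cell precursors differed, with a median of 0.0029 over 6 tested genes, 3 positive and 3 negative, and 0 called. At an unadjusted p under 0.05, 1 of them was higher and 1 lower. That list summed to 37.5 to 41.5 CPM in wild-type and 43.1 to 52.2 CPM in mutant libraries. Lists of osteoblasts and of growth plate chondrocytes had positive medians, with 0 genes called in each. These were 0.25 over 10 osteoblast genes (7 positive, 3 negative) and 0.11 over 8 chondrocyte genes (5 positive, 3 negative). In each list 1 gene was higher and 0 lower at an unadjusted p under 0.05. The part of all these cell types in the cell cycle values was not tested. The histone median of -0.12 was nearer to 0 than those of both cell cycle lists, but the difference between histone and cell cycle genes was not tested.

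**Figure D5:**
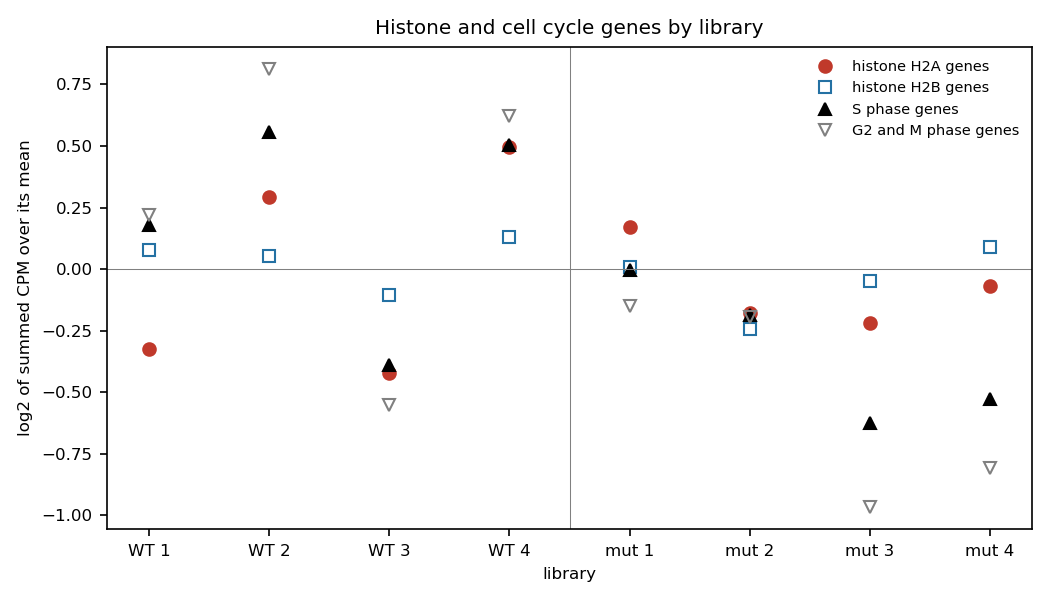
Log2 of the summed CPM in each library over the mean of the 8 libraries, for H2A, H2B, S phase and G2 and M phase genes. S phase and G2 and M phase genes span 2.26 and 3.44 times between the highest and lowest library, H2A genes span 1.89 times and H2B genes 1.29 times, and wild-type replicate 1 is low in H2A while above the mean in the other sets.

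Genes that process, degrade, transcribe or carry histones were tested in the same fit, with 0 called in each list. For comparison, 5.3% of all tested genes had an unadjusted p under 0.05 in either direction. Of 23 genes for histone 3′ end processing, 14 were negative with a median of -0.079 and 0 at an unadjusted p under 0.05. Slbp, whose protein binds the stem-loop printed above, stood at 55.2 ± 11.1 CPM in wild-type ears and 45.2 ± 7.98 CPM in mutant ears (log2 fold change -0.29, SE 0.17, edgeR adjusted p = 0.952). Of 16 genes of histone mRNA decay 3 were lower at an unadjusted p under 0.05, among them the exonuclease gene Eri1 (-0.26) and the exosome gene Exosc9 (-0.38). Npat, the coactivator that is needed for histone transcription in S phase, had a log2 fold change of 0.11 (SE 0.10). In its list of 18 genes 1 was lower at an unadjusted p under 0.05, Nfyb (-0.21), which encodes a subunit of the factor that binds CCAAT.

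Histone chaperones and histones that can also be made outside S phase had 0 genes called as well. The counts at an unadjusted p under 0.05 below stand against 5.3% of all tested genes in either direction. Of 25 chaperone genes 3 were lower at an unadjusted p under 0.05, among them Asf1b (13.4 ± 4.61 and 7.58 ± 2.26 CPM, log2 fold change -0.82) and Chaf1a (-0.55), both active at replication forks. Among 12 tested genes of the list of histones that can also be made outside S phase, 4 were lower at that level and 0 were called. H2afx, which marks DNA breaks when phosphorylated, stood at 52.7 ± 12.4 and 33.8 ± 7.51 CPM (log2 fold change -0.64, SE 0.21, edgeR adjusted p = 0.907). Cenpa, the H3 of centromeres, had a log2 fold change of -0.71, and the H2A variant genes H2afz (H2A.Z) and H2afy (macroH2A) had values of -0.32 and -0.26. H3f3c, H3f3a, H3f3b and H1f0, the others of highest level per kilobase, had log2 fold changes of -0.21, -0.059, 0.051 and -0.0020. Whether these lists differ from the 47 histone genes in their response was not tested.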

How the data were processed

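Total RNA of 8 inner ear samples was measured. The library kit adds unique molecular identifiers (UMIs), per the labels' protocols. The submitters' processing notes name FastQC, STAR and HTSeq, without versions, and mm10. Annotation, strand setting, treatment of reads with several origins and use of UMIs were not given in the sources used here. The authors deposited raw counts per symbol. From these counts CPM and tests were computed with edgeR 4.0.16 in R 4.3.3 (TMM, default filter, robust quasi-likelihood fit, genotype as the only term, Benjamini-Hochberg over 21392 genes, threshold 0.05). Intervals are 95%, from the moderated degrees of freedom. Lengths, stem-loops and shared stretches came from GENCODE M21 and promoters from RefSeq GRCm38.p6. The test was checked on simulated counts with large changes planted in well-expressed genes. That check does not measure its power for small differences or for genes of low counts. Alternatives were RLE scaling, other filters, DESeq2 1.42.0, limma-voom (limma 3.58.1), title form, a replicate block, haemoglobin genes left out and each library left out. Members and lists were chosen with earlier results of these data known. Histone genes named were the 10 of smallest p, the 3 of highest level per family, those with 0 and at least 10 counts, the extremes of fold change, and known polyadenylated or testis genes. Of each list up to 2 genes of smallest p were drawn, not all of which are described; other genes were added once values had been seen.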

Additional observations from a re-analysis of the deposited data

Results flagged for a closer look

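Single libraries stood apart from the other 3 of their genotype in 3 of 60 groups examined, by Dixon's criterion at the 95% level, which chance alone meets in about 1 in 20 groups. Hist2h3c1, the H3 gene with the highest level, reached 12.8 CPM in mutant replicate 4, where the nearest mutant library had 8.69. Hist1h2bg, an H2B gene, stood at 2.48 CPM in mutant replicate 2, where the nearest had 4.07. Hist1h2aa, the testis-type H2A gene, stood at 0.439 CPM in mutant replicate 1, where the nearest had 0.0969, a difference between 10 counts and 2. The cause of these values was not tested.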

How the results depend on the processing

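No histone gene was called for genotype under any alternative run. The count of all genes higher in mutants, 1, was 44 with DESeq2, 5 with limma-voom, 17 with the replicate block of neighbouring title numbers, 0 with genes of all-or-none counts left out (added after seeing the data) and 2 to 5 without single libraries. The count of all genes lower, 8, was 69 with DESeq2, 4 with title form as covariate, 13 with genes of all-or-none counts left out and 4 to 9 without single libraries. For title form DESeq2 called 1 histone gene against 0. The cause of these differences was not tested. Of 319 values of 20 histone genes 16 changed sign, and the smallest adjusted p was 0.399. Hist1h2ao turned to 0.066 with limma-voom and 0.058 with the block. Without single libraries the log2 fold change ranged from -0.22 to 0.25 in Hist1h2ao, -0.11 to 0.058 in Hist1h1c, -0.30 to 0.086 in Hist1h1e, -0.13 to 0.031 in Hist1h2bc, -0.16 to 0.082 in Hist1h2bg, -0.28 to 0.089 in Hist1h4h, -0.011 to 0.23 in Hist2h3b and -0.031 to 0.21 in Hist2h3c2. With the sign kept, the value moved by over 1.5 times in Hist2h3c1 (0.039 to 0.30), Hist2h2be (-0.17 to -0.023), Hist1h2af (-0.64 to -0.27), Hist1h2al (-0.37 to -0.064), Hist1h2ba (-0.39 to -0.12), Hist2h2aa1 (-0.24 to -0.086), Hist2h2aa2 (-0.24 to -0.083), Hist2h2ac (-0.33 to -0.14) and Hist3h2ba (-0.21 to -0.094). The histone median ranged from -0.23 to 0.0023. Deviations from the genotype mean correlated at 0.128, 0.252, 0.187 and -0.0384 between libraries of neighbouring title numbers. These values were not set against those of other pairings, so whether the samples are paired was not settled. No call of a histone gene changed with the block. Depth limits the 22 untested genes, of at most 13 counts per library.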
